A study of Mus musculus with 6 samples.

Results

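The Nr4a genes encode a small family of orphan nuclear receptors, and all 3 of its members, Nr4a1, Nr4a2 and Nr4a3, were followed here in cultured mouse cortical neurons before and during depolarization. The members were taken by gene symbol, 3 of the 43432 genes listed in the deposited tables. The rule used the symbol alone, but the family and the gene lists below were chosen with earlier results of these data known. Neurons came from the cortex of wild-type C57BL/6 embryos at E16.5, pooled male and female, and were grown for a week. All groups, the 0 h group included, had been silenced overnight with tetrodotoxin, a sodium channel blocker, and DL-AP5, an NMDA receptor blocker. KCl at 55 mM was then given for 2 h or 6 h, or not at all in the group called 0 h, with 2 replicates in each of these groups and 6 libraries altogether. Raised potassium depolarizes the membrane and opens voltage-gated calcium channels, so the 0 h group is the silenced background for every value below.

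Nuclear receptors are transcription factors that bind DNA through a zinc-finger domain, and most of them are switched by a lipid-soluble ligand. The Nr4a receptors have a ligand pocket filled by bulky side chains, so that their activity is set mainly by how much of the protein is made. They bind as monomers to the NBRE element, as dimers to the NurRE element, and Nr4a1 and Nr4a2 also bind DNA together with the retinoid X receptors (Rxra, Rxrb and Rxrg). In neurons the genes are classical immediate-early genes, induced by calcium through CREB and its coactivators, and they are known for roles in memory, and Nr4a2 for its role in dopamine neurons.

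Nr4a1 (also Nur77 or NGFI-B, ENSMUSG00000023034) lies on the plus strand of chromosome 15, from 101254269 to 101274795 in GRCm38. Nr4a2 (Nurr1, ENSMUSG00000026826) lies on the minus strand of chromosome 2, from 57106830 to 57124003. Nr4a3 (Nor1, ENSMUSG00000028341) lies on the plus strand of chromosome 4, from 48045153 to 48086447. All 3 are protein coding, none overlaps another annotated gene, and their expected counts were whole numbers, within 0.005, in all 6 libraries, which is what the quantification gives when no read is divided with another gene.

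With the rise of the 3 genes already known, their promoters were searched for TGACG, the core of the cAMP response element to which CREB binds. The search covered RefSeq windows in GRCm38.p6 that run from 250 bases before to 50 bases after a start site, on both strands. Each of the 3 windows held 4 such cores, all of them upstream of the RefSeq start. Other start sites of these genes were not searched, among them those of Nr4a2 at 57115038 and 57113072. At least 1 core was found in 20.8% of the 32851 windows, and at least 4 in 0.231% of them. These windows were not matched to those of the 3 genes for GC content, and TGACG holds a CG. The sites are printed 5′ to 3′ on the strand of the gene, with the core in capitals (CGTCA is its reverse complement). They show the feature that the 3 windows share, and a match is a run of letters and not evidence of binding.

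Nr4a1, chr15:101266607-101266623: tccctgCGTCAatggaa
Nr4a1, chr15:101266627-101266643: cgcgtgCGTCAcgcgcg
Nr4a1, chr15:101266771-101266787: cgtgtgCGTCAgtggcg
Nr4a1, chr15:101266800-101266816: tccatgCGTCAcggagc
Nr4a2, chr2:57124193-57124209: ggccggCGTCActggca
Nr4a2, chr2:57124137-57124153: tgcacgCGTCAcggagc
Nr4a2, chr2:57124104-57124132: ccgggcTGACGgggccgcTGACGcgcttg
Nr4a3, chr4:48045068-48045097: ggagggTGACGtagcgtcccatgtCGTCAc
Nr4a3, chr4:48045094-48045110: tcacatTGACGtctcgc
Nr4a3, chr4:48045152-48045168: cataaaTGACGtgccga

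The sites of Nr4a1 and Nr4a2 are measured from RefSeq starts at 101266846 and 57124003. The RefSeq start of Nr4a3 used here, 48045305, lies downstream of the GENCODE start at 48045153, so the last of its sites falls at the very beginning of the GENCODE transcript. The full palindrome TGACGTCA was in none of the 3 windows and in 1.79% of all windows. The NBRE, AAAGGTCA, to which the receptors themselves bind, was in none of the 3 and in 1.51% of all, and the CArG box bound by SRF was in none of the 3 and in 1.63% of all.

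Total expected counts lay between 25959298 and 28573067 per library. Replicates were compared over 12290 genes whose normalized counts averaged 50 or more, and their log2 differences had an SD of 0.246 for the silenced pair, 0.429 for the 2 h pair and 0.214 for the 6 h pair. The 2 h libraries thus stood further apart, and their difference followed the GC content of the genes (Spearman's rho across genes -0.747, against -0.399 at 0 h and -0.283 at 6 h). For this reason the changes of the Nr4a genes are given also without each 2 h library. The summed TPM of 5 neuronal markers was 3270 to 3320 at 0 h, 2550 to 2650 at 2 h and 2660 to 2840 at 6 h, and that of 6 astrocyte markers was 510 to 551, 505 and 413 to 424. In the same order 5 markers of excitatory neurons summed to 423 to 426, 460 to 492 and 575 to 586 TPM. The 3 markers of inhibitory neurons summed to 197 to 206, 260 to 278 and 445 to 478 TPM, and 2 of them were called higher at 6 h vs 0 h, as 9.1% of all genes were. In that comparison 1 of the 5 neuronal markers was called lower, as were 10.2% of all genes. At 6 h vs 2 h 2 of the 5 excitatory markers were called higher, as were 10.1% of all genes. In each of the other marker lists, of 4 to 7 genes, at most 2 genes were called in any comparison. Over all genes 3.62% to 10.1% were called higher and 5.94% to 10.2% lower, depending on the comparison. The 6 microglial markers summed to between 2.37 and 6.48 TPM over all libraries. In bulk RNA, fewer cells of a type and less RNA per cell cannot be told apart, and the part of cell make-up in the changes described here was not tested. Scaling by library totals in place of size factors gave 499 genes called higher and 1332 lower at 2 h vs 0 h instead of 609 and 1000, and 1032 and 2564 at 6 h vs 0 h instead of 1572 and 1761. The calls of the 3 Nr4a genes were the same under both scalings.

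The first comparison asked how strongly each receptor gene answered after 2 h. All 3 rose, and the gene with the lowest starting level rose by the largest factor. Of 16840 genes tested, 3.62% were called higher in the 2 h group than in the silenced group, and all 3 Nr4a genes were among them. None of the 3 was called lower, as 5.94% of all genes were. Calls needed an adjusted p of 0.05 or less together with a change of more than 2-fold. Levels are in TPM, a unit corrected for transcript length that can be compared between genes, and in normalized counts, which are compared between libraries only.

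Nr4a1 stood at 2.48 and 2.58 TPM in the silenced libraries, at 168 and 206 TPM after 2 h of KCl, and at 71.9 and 73.0 TPM after 6 h. In normalized counts the silenced libraries held 76.3 and 78.4, the 2 h libraries 5858.8 and 7088.9, and the 6 h libraries 2513.5 and 2508.2. The 3 times did not overlap, with 2 h highest and 0 h lowest. At 2 h against 0 h the gene was 83.7-fold higher (95% interval 65.9 to 106), or 6.39 in log2 units (SE 0.18, adjusted p 2.24e-285). This was the 26th largest increase among the 16840 genes tested. Without the first or the second 2 h library the log2 fold change was 6.51 or 6.22.

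Silenced neurons held 4.90 and 5.49 TPM of Nr4a2, which became 229 and 244 TPM after 2 h and 60.9 and 54.1 TPM after 6 h. In normalized counts these libraries had 202.4 and 240.2, then 10109.9 and 9570.1, then 2402.2 and 2105.9. Again no library of one time reached the range of another. The increase at 2 h was 44.4-fold (95% interval 36.4 to 54.2), or 5.47 in log2 units (SE 0.15), which ranked 71st. Its adjusted p was too small for the software to store and was listed as 0. Leaving out either 2 h library gave 5.42 or 5.49.

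Nr4a3 was the most abundant of the 3 in silenced neurons, at 22.7 and 22.2 TPM. It reached 308 and 271 TPM at 2 h and stayed at 193 and 199 TPM at 6 h. In normalized counts it went from 1557.0 and 1519.4 through 24103.4 and 20927.7 to 15161.4 and 15378.4. The 6 h libraries lay below both 2 h libraries but much nearer to them than to the 0 h libraries. The increase at 2 h was 14.6-fold (95% interval 12.5 to 17.1), or 3.87 in log2 units (SE 0.12, adjusted p 1.02e-240), and ranked 192nd. Without either 2 h library it was 3.76 or 3.95. The 95% intervals of the 3 genes' factors at 2 h did not overlap, in the order Nr4a1, Nr4a2, Nr4a3.

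**Figure D1:**
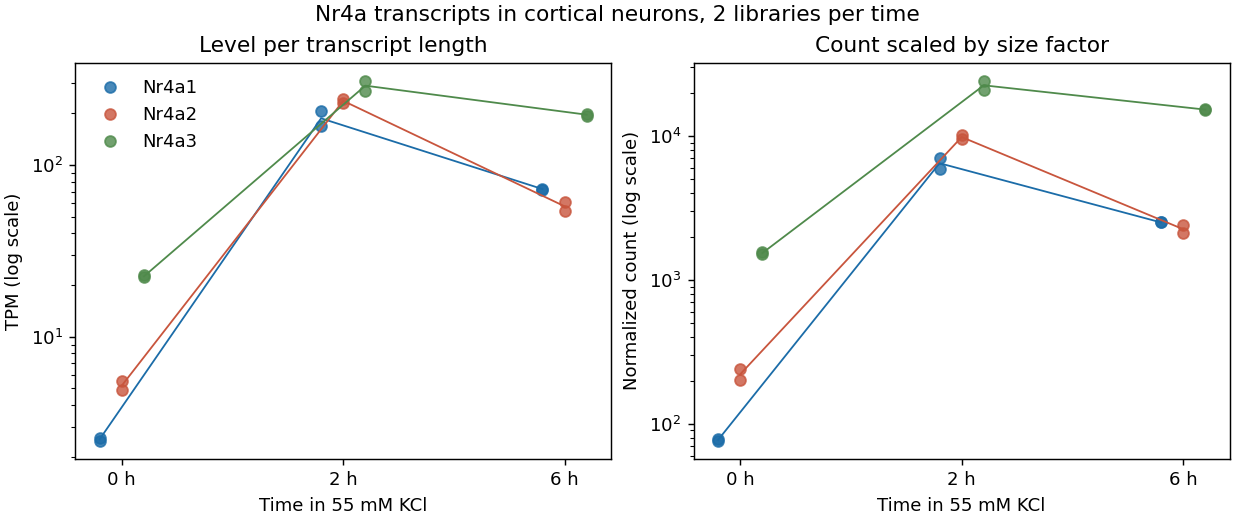
TPM (left) and normalized counts (right) of Nr4a1, Nr4a2 and Nr4a3 on log axes against time in 55 mM KCl, where each point is 1 library and lines join the means of 2 libraries. The genes are spread between 2.48 and 22.7 TPM at 0 h and lie between 168 and 308 TPM at 2 h, and by 6 h Nr4a3 sits above the other two.

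The second comparison asked what was left of the response after 6 h of continuous KCl. All 3 genes were still called higher than at 0 h, where 9.1% of 17277 genes tested were called higher and 10.2% lower. Nr4a1 was 32.5-fold above 0 h (95% interval 25.5 to 41.3), or 5.02 in log2 units (SE 0.18, adjusted p 2.16e-174). The corresponding factor for Nr4a2 was 10.2 (8.34 to 12.4), or 3.35 in log2 units (SE 0.15, adjusted p 1.81e-111). For Nr4a3 it was 9.93 (8.48 to 11.6), or 3.31 in log2 units (SE 0.12, adjusted p 2.36e-175). The intervals of Nr4a2 and Nr4a3 overlapped at 6 h, although they had not at 2 h, while that of Nr4a1 lay above both.

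The third comparison, 6 h against 2 h, separated the members by how far they had come down. Nr4a2 was at 22.9% of its 2 h level (95% interval 19.1 to 27.4), or -2.13 in log2 units (SE 0.13, adjusted p 9.12e-55). Nr4a1 was at 38.8% (32.1 to 46.9), or -1.37 in log2 units (SE 0.14, adjusted p 9.45e-21). Both were called lower, where 8.02% of 16404 genes tested were called lower and 10.1% higher. The call of Nr4a1 was lost when the change was tested against a fold change of 2 (adjusted p 0.2). Nr4a3 was at 67.8% of its 2 h level (58.1 to 79.2), or -0.56 in log2 units (SE 0.11, adjusted p 4.99e-06), which is under the 2-fold threshold, so Nr4a3 was not called. The intervals of the 3 genes did not overlap in this comparison either. Leaving out the first or the second 2 h library gave -1.49 or -1.21 for Nr4a1, -2.08 or -2.15 for Nr4a2, and -0.45 or -0.64 for Nr4a3.

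**Figure D2:**
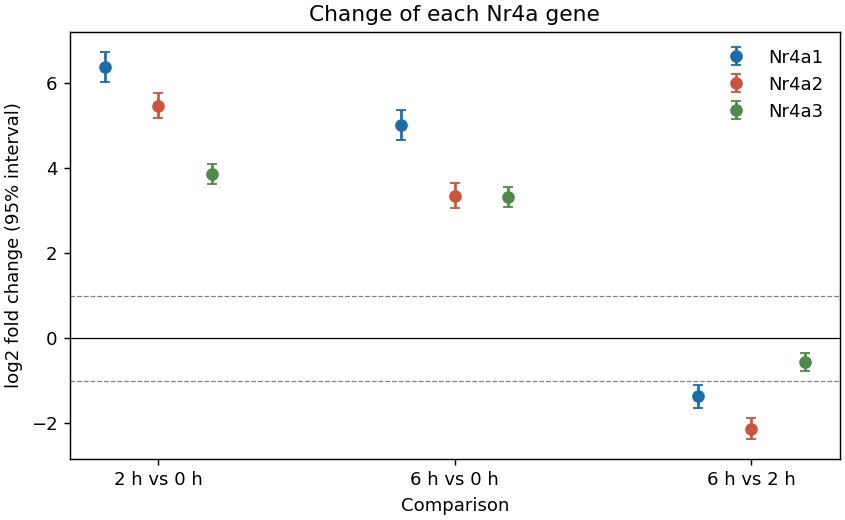
The log2 fold change of each Nr4a gene in the 3 comparisons, with bars for the 95% interval from the fit over 6 libraries and dashed lines at the 2-fold threshold. The genes go from 6.39 to 3.87 at 2 h vs 0 h in the order Nr4a1, Nr4a2, Nr4a3, and at 6 h vs 2 h only Nr4a3, at -0.56, lies inside the dashed lines.

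The study took as early response genes those that go up by 2 h and come down again between 2 h and 6 h. With both calls required, 83 of 16404 genes met the definition, or 0.506%. Nr4a1 and Nr4a2 were among them and Nr4a3 was not, because of its size of change at the second step. The place of Nr4a1 rests on the call at that step, which the test against a fold change of 2 did not make. All 3 comparisons use the same 3 groups, so each time point's libraries enter a pair of them.

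Since the members rose by different factors, the make-up of the family changed. Summed over the 3 genes, Nr4a transcripts made up 30.1 and 30.3 TPM in silenced neurons, 705 and 722 TPM in the 2 h libraries and 326 TPM in both 6 h libraries. Of that sum, Nr4a3 held 75.5% and 73.4% in the silenced libraries, 43.7% and 37.6% after 2 h, and 59.3% and 61.1% after 6 h. Nr4a2 held 16.3% and 18.1% before KCl, then 32.5% and 33.8%, then 18.7% and 16.6%. Nr4a1 held 8.23% and 8.52% before KCl, then 23.8% and 28.6%, then 22.0% and 22.4%. The silenced neurons thus held mostly Nr4a3 transcripts, the 2 h neurons a more even mixture, and the 6 h neurons an intermediate one. The share of Nr4a2 at 6 h overlapped its share at 0 h (exact permutation test, two-sided, p = 0.667). Every other difference in share between times was without overlap and reached p = 0.333, the smallest value that 2 libraries against 2 can give in the exact permutation test, so this test cannot reach 0.05 for a share.

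**Figure D3:**
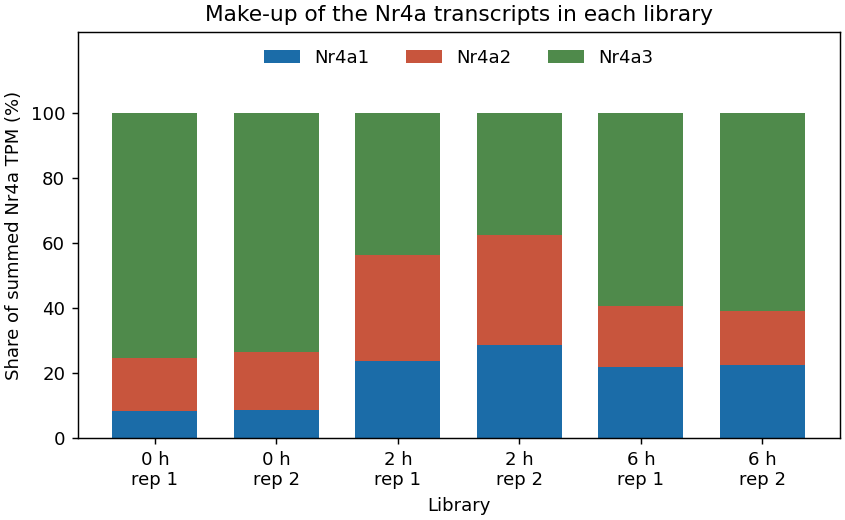
The share of each gene in the summed TPM of Nr4a1, Nr4a2 and Nr4a3, in percent, as a stacked bar for each of the 6 libraries. The Nr4a3 part covers 75.5% and 73.4% of the silenced bars, 43.7% and 37.6% of the 2 h bars, and 59.3% and 61.1% of the 6 h bars.

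The other 46 nuclear receptor genes of the mouse were examined as the background of the family. Of these, 44 had a count in any library. At 2 h vs 0 h, 1 of 35 tested was called higher and 2 lower (2.86% and 5.71%), near the 3.62% and 5.94% of all genes, with a median log2 fold change of -0.06 against 0.015 for all genes tested. The gene called higher was Pparg, a fatty acid receptor, at 2.2 ± 0.686 normalized counts at 0 h and 23.8 ± 7.32 at 2 h (SD, n = 2). The genes called lower were the estrogen receptor gene Esr1 (log2 fold change -1.51, DESeq2 adjusted p 2.14e-05) and Nr2c1, an orphan receptor (-1.24, adjusted p 3.63e-05).

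At 6 h vs 0 h, 5 of 36 tested were called higher and 1 lower (13.9% and 2.78%, against 9.1% and 10.2% of all genes), with a median log2 fold change of 0.25 against 0 for all genes. Nr2f1 (COUP-TFI), which patterns the cortex, rose from 1371.4 ± 18.7 to 3891.9 ± 89.0 normalized counts (log2 fold change 1.5, DESeq2 adjusted p 5.13e-43). Nr6a1 (1.21, adjusted p 2.83e-08), the orphan receptor Esrrb (1.25, adjusted p 0.00624), Pparg and Esr2 were also called higher. The last of these remained a rare transcript, at 37.5 ± 8.97 normalized counts at 6 h and 0.4 ± 0.629 at 0 h. Nr3c2, the mineralocorticoid receptor gene, fell from 411.7 ± 18.5 to 144.8 ± 0.990 (-1.51, adjusted p 1.61e-15). At 6 h vs 2 h, 6 of 35 were called higher and 1 lower (17.1% and 2.86%, against 10.1% and 8.02% of all genes), among them the thyroid hormone receptor gene Thrb (1.93, adjusted p 1.32e-16), Rorb, a gene of layer 4 neurons (1.05, adjusted p 9.92e-04), and Nr3c2 (-1.55, adjusted p 3.56e-16). Some of these counts of nuclear receptor genes changed when either 2 h library was left out, and so did the counts over all genes.

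The dimer partners of Nr4a1 and Nr4a2 stayed within the 2-fold threshold. Rxra had 401.8 ± 14.6 normalized counts in silenced neurons, 333.1 ± 31.9 after 2 h of KCl and 598.6 ± 2.18 after 6 h (SD, n = 2). In the same order Rxrb had 1128.3 ± 1.32, 1081.2 ± 145 and 817.0 ± 62.9, and Rxrg had 162.2 ± 1.68, 109.3 ± 9.14 and 144.9 ± 15.7. Among the 3 genes and 3 comparisons the largest log2 fold change was the 0.85 of Rxra at 6 h vs 2 h (DESeq2 adjusted p 1.05e-06).

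Per length, the Nr4a genes moved up the order of the nuclear receptor genes. At 0 h Nr4a3 ranked 5th by mean TPM among the 47 with a count, Nr4a2 20th at 5.2 TPM and Nr4a1 25th at 2.53 TPM. At 2 h they ranked 2nd, 3rd and 4th, with 290 ± 26, 236 ± 10.6 and 187 ± 27.3 TPM, below only the thyroid hormone receptor gene Thra at 1530 TPM. The 2 h libraries of Nr4a3 and Nr4a2 did not overlap, and neither did those of Nr4a2 and Nr4a1, but the differences between genes were not tested. By 6 h Nr4a3 still ranked 2nd at 196 ± 4.19 TPM, while Nr4a1 (72.4 ± 0.750 TPM) and Nr4a2 (57.5 ± 4.84 TPM) ranked 4th and 5th after Nr2f1 at 89.1 TPM.

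**Figure D4:**
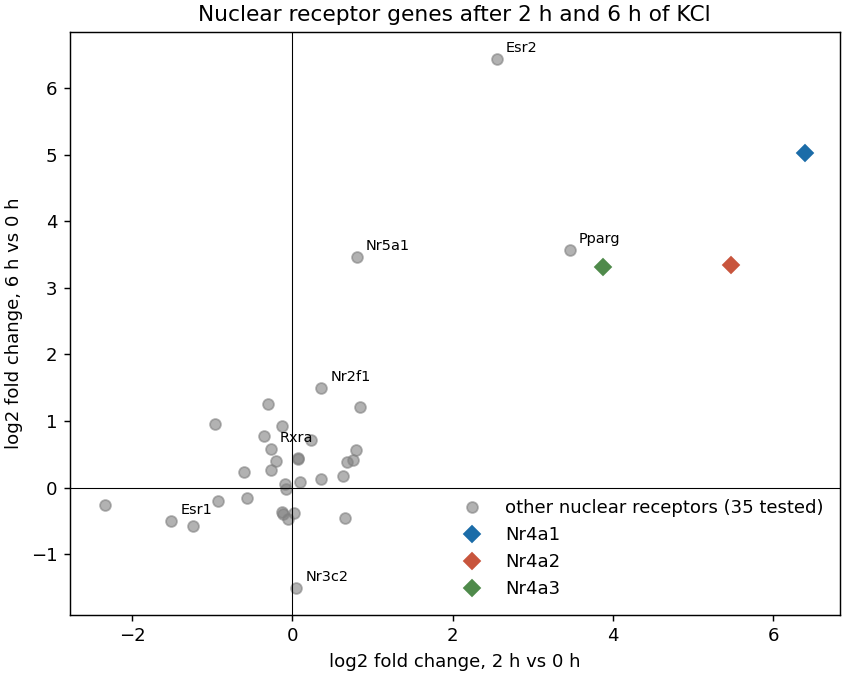
The log2 fold change at 6 h vs 0 h against that at 2 h vs 0 h for the 35 other nuclear receptor genes tested in both comparisons (grey) and the 3 Nr4a genes (diamonds). The Nr4a genes lie at the upper right, at 6.39 and 5.02, 5.47 and 3.35, and 3.87 and 3.31, and Pparg, Esr2 and Nr5a1, the other genes above 3 on the vertical axis, had mean normalized counts of only 2.2, 0.4 and 0.9 in silenced neurons. Both axes share the 0 h libraries, so the line-up of points is not a result.

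The route from calcium to the Nr4a promoters was followed in a list of 24 genes of calcium channels, calcium-dependent kinases and phosphatases, CREB, MEF2 and SRF factors and their cofactors. At 2 h 3 of the 24 were called higher and none lower (12.5%, against 3.62% of all genes higher). Crem, whose products include the repressor ICER, rose from 209.0 ± 10.7 to 2574.1 ± 677 normalized counts (log2 fold change 3.62, DESeq2 adjusted p 1.78e-67). Sik1, a kinase that restrains the CREB coactivators, rose by 2.56 (adjusted p 4.21e-78) and Srf, the factor of the CArG box, by 1.37 (adjusted p 6.72e-32). At 6 h 8 were called higher and 2 lower (33.3% and 8.33%, against 9.1% and 10.2%). Crem stood then at 3692.8 ± 151, Hdac9, a class IIa deacetylase that represses MEF2 factors, had risen by 2.55 (adjusted p 1.74e-67), and the coactivator gene Crebbp by 1.24 (adjusted p 1.59e-22). The calcium channel gene Cacna1d (-1.80, adjusted p 2.07e-43) and the CREB coactivator gene Crtc1 (-1.03, adjusted p 3.02e-10) were called lower. At 6 h vs 2 h 3 of the 24 were called higher and 1, Cacna1d, lower (12.5% and 4.17%, against 10.1% and 8.02% of all genes).

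Other immediate-early genes were set beside the receptors in a list of 17. At 2 h 13 were called higher and none lower (76.5%, against 3.62% of all genes higher), with a median log2 fold change of 2.54, below that of all 3 Nr4a genes. At 6 h 11 were called higher than at 0 h and 1 lower (64.7% and 5.88%, against 9.1% and 10.2%), and at 6 h vs 2 h none was called higher and 9 lower (52.9%, against 8.02% of all genes lower and 10.1% higher), with a median of -1.16. By edgeR these counts were 0 and 10, and at an unadjusted p under 0.05 in DESeq2 they were 1 and 11. Fos and Npas4 had log2 fold changes of 7.71 and 7.64 at 2 h, beside the 6.39 of Nr4a1, and -0.97 and -1.17 between 2 h and 6 h. Beside the -2.13 of Nr4a2 in this last comparison stood Egr2 (-2.55, DESeq2 adjusted p 1.95e-12), Klf4 (-2.44, adjusted p 9.33e-19) and Junb (-2.15, adjusted p 1.28e-07), and Fosb (-3.26, adjusted p 0.025), which went from 4244.5 ± 455 to 444.0 ± 50 normalized counts. Egr4, a rare transcript, was also called lower (adjusted p 0.0127). Fosl2 was nearest to Nr4a3 at this step, with -0.60 (adjusted p 7.56e-09), also under the threshold.

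The genes with the most similar course were found by the root mean square difference between profiles of log2(normalized count + 1) over the 6 libraries, with the 0 h mean of each gene set to 0, among 11183 genes whose normalized counts averaged 100 or more. The Nr4a genes themselves were left out of these orders. The genes nearest to Nr4a3 were Nfil3 (0.35), a transcription factor gene, Ccn1 (0.36), a matrix protein gene, Ism1 (0.42), Vgf (0.48), which encodes a secreted neuropeptide precursor, and Crem (0.51). Nr4a2 was followed by Maff (0.69), Gpr35 (1.01), Sertad1 (1.04), Pcsk1 (1.06) and Crem (1.19), and Nr4a1 by Pcsk1 (0.87), a prohormone convertase gene, Npas4 (1.10), Fos (1.23), Maff (1.27) and Gpr35 (1.33). Between the members themselves the difference was 0.93 for Nr4a2 and Nr4a3, 1.09 for Nr4a1 and Nr4a2, and 1.75 for Nr4a1 and Nr4a3, so that Nr4a2 had only Maff nearer to it than Nr4a3, and Nr4a1 only Pcsk1 nearer than Nr4a2. At 6 h vs 2 h, where Nr4a1 was at -1.37 and Nr4a2 at -2.13, the log2 fold changes of the genes nearest to them were -1.17 for Npas4, -0.97 for Fos, -0.5 for Maff, 0.19 for Pcsk1, 0.22 for Sertad1, 0.33 for Gpr35 and 0.52 for Crem. Beside the -0.56 of Nr4a3 stood -0.49 for Nfil3, -0.47 for Ccn1, 0.25 for Ism1, 0.48 for Vgf and the same 0.52 for Crem.

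Genes that are known in other tissues as targets of Nr4a receptors were counted next, 13 in all, most of them genes of dopamine neurons and peptide hormones. At 2 h 1 of 12 tested was called higher and none lower (8.33% against 3.62%), and this was Bdnf, the neurotrophin gene, which rose by a log2 fold change of 4.03 (DESeq2 adjusted p 3.41e-71). At 6 h Bdnf was still higher at 4.85 (adjusted p 6.40e-104), while 3 genes were called lower (25%, against 10.2%). These were Ret, the receptor of GDNF family ligands (-1.63, adjusted p 1.48e-06), Ptpru, a receptor phosphatase (-1.35, adjusted p 7.32e-09), and the dopamine receptor gene Drd2 (-1.11, adjusted p 0.00455). The median over the list was 0.12 at 2 h and -0.23 at 6 h vs 0 h. Th, a dopamine neuron gene that makes the dopamine precursor, was at 0.88 ± 0.212, 0.87 ± 0.0707 and 0.515 ± 0.445 TPM in time order (SD, n = 2). Its 6 h libraries had 20.3 and 3.2 normalized counts. Slc6a3, the dopamine transporter gene, was at 0.675 ± 0.247, 0.605 ± 0.0212 and 0.405 ± 0.177 TPM, and neither gene was called. Slc18a2, the vesicular monoamine transporter gene, was at 2.22 ± 0.453, 2.82 ± 1.94 and 3.33 ± 0.544 TPM. Its 2 h libraries had 236.7 and 80.6 normalized counts, and it was not called in any comparison. Drd2 was at 5.72 ± 0.417, 3.76 ± 0.778 and 2.36 ± 0.311 TPM.

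Nr4a2 also marks neurons of the subplate and claustrum, and 9 other genes of those cells were examined for that reason. At 2 h vs 0 h the count of called genes was 0 by DESeq2 and 0 by edgeR (against 3.62% higher and 5.94% lower over all genes), 1 of the 9 had an unadjusted p under 0.05, and the median log2 fold change was 0.14. That gene was Ntng2, whose log2 fold change of 0.52 had a DESeq2 adjusted p of 0.0314 and lay under the 2-fold threshold. At 6 h vs 0 h 2 of the 9 were called higher and none lower by DESeq2 (22.2%, against 9.1% higher), while edgeR called 2 higher and 1 lower. Those called higher by DESeq2 were Ccn2 (2.16, adjusted p 8.63e-09), which encodes a matrix protein, and Lpar1 (1.28, adjusted p 0.00512). The list's more abundant members Gnb4, Synpr and Ntng2, picked after their values were seen, were at 57.4, 67.8 and 18.2 TPM at 0 h. At 2 h they were at 55.1, 64.1 and 21.7 TPM. Nr4a2 was at 5.2 TPM at 0 h and at 236 TPM at 2 h. The rarer members of the list spread more widely at 2 h vs 0 h. They ran from -1.22 for Oprk1 (SE 0.8) to 1.43 for Cplx3 (SE 0.89) in log2 units, and none was called. Whether the number of such cells had a part in the rise of Nr4a2 was not tested.

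The quantification also gave an effective length for each gene, the mean over its transcripts weighted by their abundance, less the mean fragment length. Nr4a1 was listed with 1 transcript, so its effective length, 2152 to 2172 bases, moved only with the fragments of the library. Nr4a3, with 4 transcripts, stayed between 4826 and 4856 bases in all 6 libraries.

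Nr4a2, with 6 transcripts, was at 2914 and 3104 bases at 0 h, 2726 and 2467 bases at 2 h, and 2428 and 2443 bases at 6 h. Every depolarized library was below both silenced ones, and the 2 h libraries differed from each other by more than the 6 h ones. For 2 h vs 0 h the log2 ratio was -0.214 with an SE of 0.063 (limma adjusted p 0.521). For 6 h vs 0 h it was -0.304 (adjusted p 0.174), and for 6 h vs 2 h -0.09 (adjusted p 0.838), with the same SE. Without the first or the second 2 h library the ratio was -0.286 or -0.142 for 2 h vs 0 h and -0.0185 or -0.163 for 6 h vs 2 h, and none of these was called. Thus the shift did not pass the test in any comparison over 11233 genes, of which 0.0178%, 0.445% and 0.089% were called shorter. The 6 annotated transcripts have spliced lengths of 3568, 3422, 3123, 2400, 1099 and 182 bases in GENCODE M21. The transcripts of 3422 and 3123 bases begin at 57124003, the start whose promoter is shown above. Those of 3568 and 1099 bases begin at 57115038, and the protein-coding transcript of 2400 bases at 57113072. A lower mean length at this gene means that more of the estimated transcripts were short ones, and the tables of genes do not say which. The TPM values of Nr4a2 were divided by these lengths, whereas the counts and their tests were not.

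**Figure D5:**
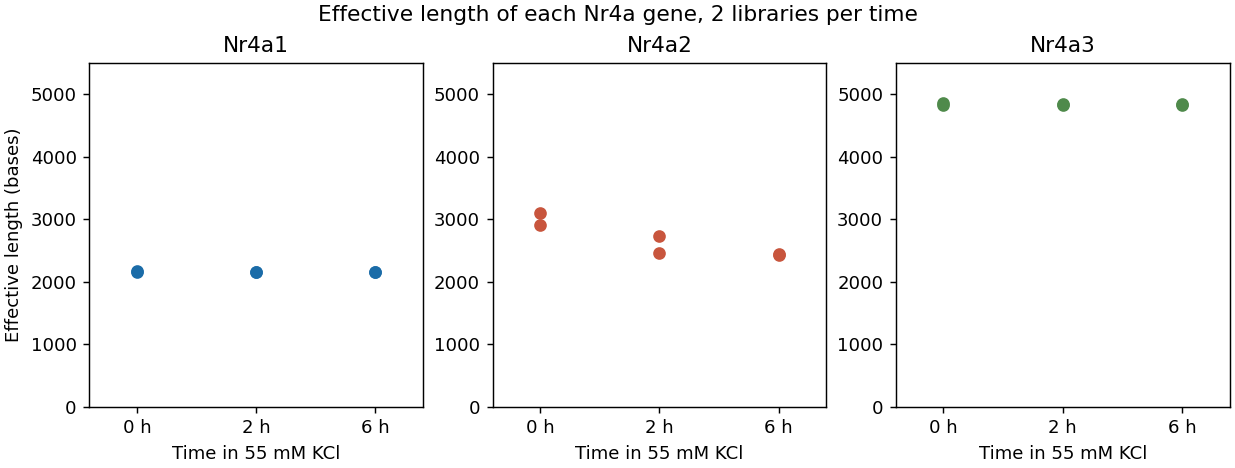
The effective length in bases of Nr4a1, Nr4a2 and Nr4a3 against time in 55 mM KCl, on an axis from 0, with 1 point for each of 2 libraries per time. Nr4a2 goes from 2914 and 3104 bases at 0 h to 2428 and 2443 bases at 6 h, while Nr4a1 and Nr4a3 stay level.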

How the data were processed

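Expected counts, TPM and lengths were read from the 6 tables that the authors deposited, 1 per library. The authors trimmed reads with Trim Galore and mapped them to mm10, and the submitters' processing notes name RSEM 1.3.0 and Bowtie2 2.2.9. The expected counts deposited by the authors are not normalized, and the deposited TPM values were scaled by RSEM for effective length to the same total per library. The annotation release and the strand setting are not given in the sources used here. Libraries were poly(A)-selected, stranded and paired-end by the study's methods. The study describes the 2 replicates of each group as biological, and the labels give only their numbers.

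Symbols and positions came from GENCODE M21 (GRCm38), and 42462 of 43432 identifiers had a symbol. Of 27749 genes listed with 1 transcript, 82.56% had the same length in M21 within 0.5 bases, so the releases differ in part. The 49 nuclear receptor genes, the other lists and the members were chosen with earlier results of these data known.

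Expected counts were rounded, and DESeq2 1.42.0, run in R 4.3.3, was fitted to 22515 genes in all 6 libraries at once, with no term besides the group. Fold changes were left unshrunken, and p-values of the Wald test were adjusted by the Benjamini-Hochberg method after independent filtering. The choice of DESeq2 follows the methods of the study, as do the thresholds of an adjusted p of at most 0.05 and a fold change above 2. Intervals of 95% were taken from the log2 fold change and its SE. The log2 effective lengths of genes whose counts averaged 100 or more were tested with limma 3.58.1, and called at an absolute log2 ratio of at least 0.2. Named genes were those called within a fixed list, at most 10 a list, the Rxr genes, and the 5 most similar genes per member. The list genes given at their TPM without a call were added after their values were seen. Alternatives were edgeR 4.0.16, other size factors and filters, a replicate block, GC correction, limma on log2(TPM + 0.1) or log2(TPM + 1), and each library left out in turn. The deposited FPKM column was not used.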

Additional observations from a re-analysis of the deposited data

How the results depend on the processing

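Of 153 recomputed expression changes of the 3 Nr4a genes, 152 kept their direction and their side of the threshold. The exception was Nr4a1 at 6 h vs 2 h, which at -1.37 was not called when tested against a fold change of 2 (adjusted p 0.2). None of the 81 recomputed effective length ratios was called. That of Nr4a2 at 2 h vs 0 h, -0.214, was nearer 0 than the limit of 0.2 with the RSEM length (-0.188), an alternative added after the data were seen, and without the second 0 h library (-0.168) or the second 2 h library (-0.142). Over all alternatives the log2 fold change at 2 h vs 0 h ranged from 5.73 to 6.51 for Nr4a1, from 5.26 to 5.61 for Nr4a2 and from 3.63 to 3.95 for Nr4a3. At 6 h vs 2 h it ranged from -1.49 to -1.19, from -2.23 to -2.02 and from -0.64 to -0.45. Leaving out a library leaves 1 sample in its group, which is then taken to vary like the others. Same-numbered libraries deviated together at 0.281 (0 h and 2 h), -0.002 (0 h and 6 h) and 0.152 (2 h and 6 h), so the numbers were not taken as pairs, and with the replicate block Nr4a1, Nr4a2 and Nr4a3 were at 6.38, 5.47 and 3.87 at 2 h vs 0 h. Library totals as size factors moved the median of all genes to -0.157, -0.253 and -0.076 in the 3 comparisons, from 0.01, -0.008 and 0.002.

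Counts of called genes moved more. Tested against a fold change of 2, 178 genes were higher and 225 lower at 2 h vs 0 h (609 and 1000 in the report's test), 446 and 414 at 6 h vs 0 h (1572 and 1761), and 342 and 198 at 6 h vs 2 h (1654 and 1316). With it, nuclear receptor genes numbered 0 higher and 0 lower, 2 and 0, and 1 and 0 in the same order. Library totals gave 1032 genes higher at 6 h vs 0 h, and 4 nuclear receptor genes lower at 2 h vs 0 h, as did limma on log2(TPM + 0.1). Limma on log2(TPM + 1) gave 257 genes higher at 2 h, 777 higher at 6 h vs 0 h and 750 lower at 6 h vs 2 h, with 0, 1 and 2 nuclear receptor genes higher in the 3 comparisons. When each library was left out in turn, nuclear receptor genes called at 2 h vs 0 h numbered 0 to 2 higher and 2 to 5 lower, and those called higher numbered 3 to 6 at 6 h vs 0 h and 3 to 9 at 6 h vs 2 h. These counts are small, and the cause of each move was not tested.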
